A study of Homo sapiens with 8 samples.

Results

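The 10 members described are the MAP kinase phosphatases of the dual-specificity phosphatase (DUSP) family: DUSP1, DUSP2, DUSP4, DUSP5, DUSP6, DUSP7, DUSP8, DUSP9, DUSP10 and DUSP16. They were taken by gene symbol from a table of 61517 genes, and each symbol matched 1 row. Their mRNA was measured by poly(A)-selected RNA-seq in KYSE150, an established human esophageal squamous cell carcinoma line. The 4 groups held 2 libraries each: hypoxia with sodium oxamate and NALA, hypoxia with sodium oxamate, hypoxia alone, and normoxia. Going by the described treatment, NALA is taken to be sodium lactate. Oxamate is an inhibitor of lactate dehydrogenase, the enzyme that makes lactate from pyruvate, and the design compares hypoxia with and without it, and with lactate supplied again. The sources used here state no oxygen level, dose or duration, and all 4 groups are 1 cell line. The labels leave unsaid whether replicate libraries were separate cultures, so each p-value reflects library-to-library spread that may be only technical. In bulk RNA, fewer cells of a type and less RNA per cell cannot be told apart.

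MAP kinases are switched on when both a threonine and a tyrosine in their activation loop are phosphorylated, and the phosphatases described here remove both phosphates. They are sorted by where they act and on what. DUSP1, DUSP2, DUSP4 and DUSP5 are nuclear and are known as genes that are induced by mitogens and stress. DUSP6, DUSP7 and DUSP9 are cytoplasmic and prefer ERK, while DUSP8, DUSP10 and DUSP16 prefer the stress kinases JNK and p38. Several of them are transcribed in response to the kinases they inactivate, which makes them feedback regulators.

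Total counts per library ran from 21845676 to 29406061. Levels are CPM, the count per mega-count of the library, scaled by TMM, and changes are log2 fold changes ± standard error (SE) from edgeR's quasi-likelihood test. The Benjamini-Hochberg adjustment covered the 15554 genes tested. A gene is said to rise or fall where its adjusted p was under 0.05. All 9 squamous epithelial markers were expressed, with sums of 3550 to 3570 CPM of the library total with oxamate plus lactate, 4590 CPM in both libraries with oxamate, 3410 CPM in both hypoxia libraries and 3600 to 3610 CPM in normoxia. Leukocyte markers summed to at most 2.15 CPM in any library, and PTPRC had 0 counts in every group but oxamate plus lactate. Of 7 fibroblast and endothelial markers COL3A1 and DCN had 0 counts throughout, and the sum was 1.33 to 1.51 CPM with oxamate plus lactate, 1.33 to 2.28 CPM with oxamate, 10.6 to 11 CPM in hypoxia and 4.28 to 4.29 CPM in normoxia. The mitochondrial share of counts was 2.09% to 2.14% with oxamate plus lactate, 2.44% to 2.45% with oxamate, 4.61% to 4.78% in hypoxia and 5.73% to 5.74% in normoxia, so it moved with the groups, as did the fibroblast and endothelial sum, and the part of either in the results below was not tested.

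Of the 10 members, 9 passed the filter on low counts. DUSP2 had 0 counts in all 8 libraries, where 3 counts would be 0.0948 to 0.152 CPM, and it was not tested. In hypoxia against normoxia 3 of the 9 rose and 5 fell, where 36.7% and 36.8% of all tested genes did (73.5% in either direction). With oxamate in hypoxia, against hypoxia, 3 rose and 5 fell, where 35.7% and 44.8% of all tested genes did (80.5% in either direction). Adding lactate to oxamate raised 8 of the 9 and lowered none, where 33.2% of all tested genes rose and 31.7% fell (64.9% in either direction). With upper quartile normalization 4150 genes rose and 6340 fell in that comparison, beside 5160 and 4927 with TMM. Members with oxamate plus lactate against hypoxia counted 7 higher and 1 lower, beside 38.5% and 40.2% of all tested genes (78.6% in either direction). There upper quartile normalization gave 4683 genes higher and 7693 lower, beside 5981 and 6246 with TMM. Members with oxamate against normoxia counted 4 higher and 4 lower, beside 31.9% and 40.1% (72.0% in either direction). The comparisons share groups and are given side by side, not as independent results.

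**Figure D1:**
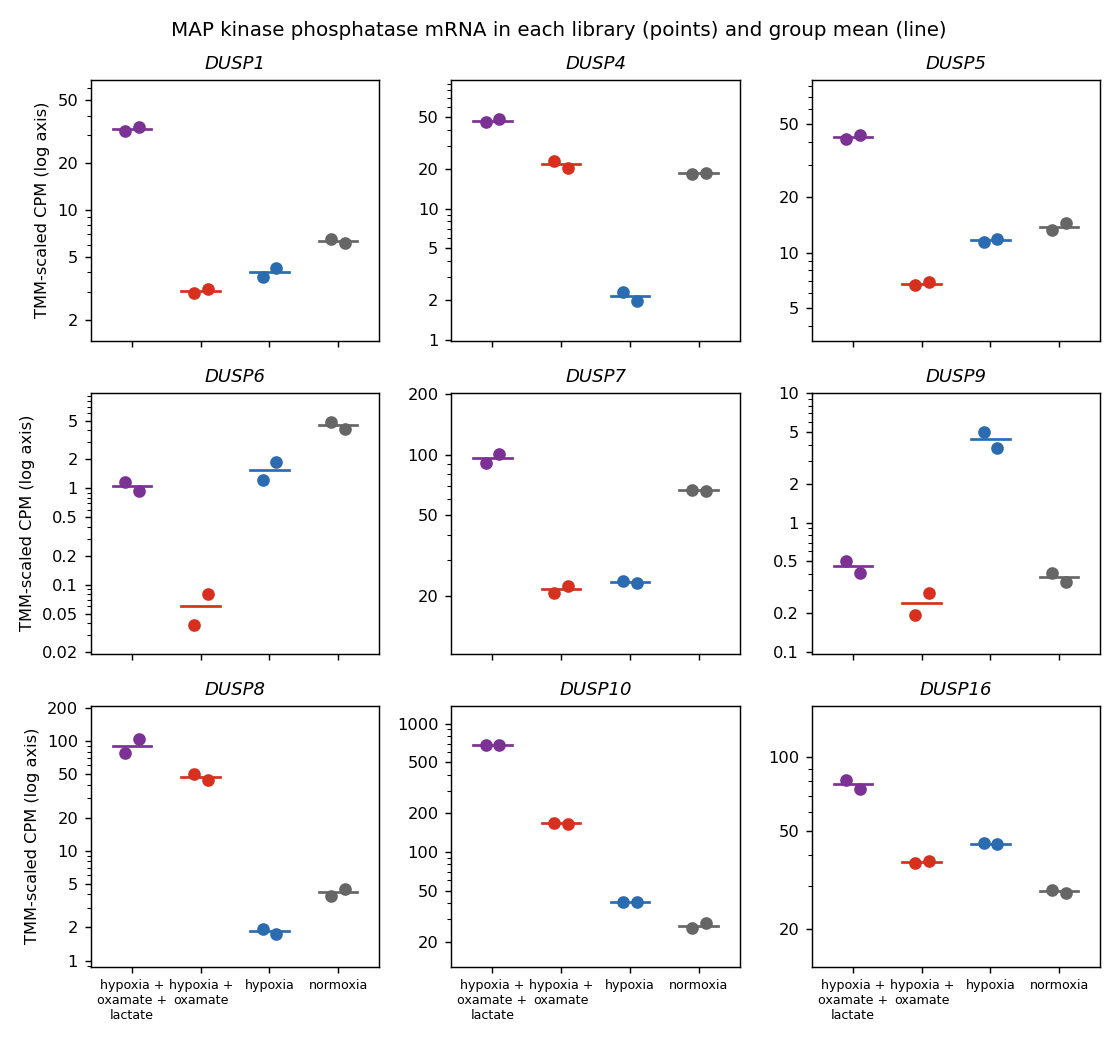
TMM-scaled CPM (log axis, its own range in each panel) of the 9 tested members in the 2 libraries of each group (points) and the group mean (line). DUSP10 is highest with oxamate plus lactate at 682 CPM on average, DUSP9 is highest in hypoxia, and DUSP6 is at or under 0.0809 CPM in both oxamate libraries.

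The JNK and p38 phosphatases held the most abundant member per length in all groups but normoxia, DUSP10, and the member with the largest increase of all, DUSP8. DUSP10 (ENSG00000143507, also called MKP-5; GRCh38 chr1:221701424-221742176, minus strand, GENCODE release 29) prefers p38 and JNK. It had 687 and 677 CPM with oxamate plus lactate, 169 and 165 CPM with oxamate, 40.6 and 40.7 CPM in hypoxia and 25.5 and 27.8 CPM in normoxia. Each addition stood above the group before it, and no 2 groups overlapped. DUSP10 rose by 0.60 ± 0.05 in hypoxia against normoxia (1.52-fold, edgeR adjusted p = 2.73e-10). With oxamate it rose by a further 2.04 ± 0.04 against hypoxia (4.11-fold, edgeR adjusted p = 2.74e-21). Lactate added to oxamate raised it by 2.03 ± 0.03 against oxamate alone (4.09-fold, edgeR adjusted p = 1.1e-21). Against hypoxia alone, the fitted TMM-scaled level of DUSP10 was 16.8-fold higher with oxamate plus lactate, the 60th largest fitted increase among all tested genes.

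DUSP8 (ENSG00000184545; chr11:1554044-1571920, minus strand) acts on JNK and p38 and is a gene known mainly from brain and heart. It had 77.3 and 104 CPM with oxamate plus lactate and 49.5 and 44.4 CPM with oxamate. In hypoxia it had 1.93 and 1.76 CPM and in normoxia 3.87 and 4.49 CPM. The 4 oxamate-treated libraries lay far above the other 4, and the replicates with lactate stood further apart than those of any other group. DUSP8 rose by 4.66 ± 0.27 with oxamate against hypoxia (25.3-fold, edgeR adjusted p = 2.16e-05), the 33rd largest fitted increase among all tested genes. It also rose with oxamate against normoxia, by 3.48 ± 0.23 (11.2-fold, edgeR adjusted p = 4.78e-05). Adding lactate raised it by 0.96 ± 0.15 (1.94-fold, edgeR adjusted p = 0.0029). In hypoxia against normoxia DUSP8 was at -1.18 ± 0.43, with both hypoxia libraries below both normoxia libraries, and did not pass (95% interval -2.28 to -0.09, edgeR adjusted p = 0.053). It passed as lower in a fit of hypoxia and normoxia alone (edgeR adjusted p = 7.12e-06), and with all 8 libraries under DESeq2 (adjusted p = 1.86e-08), without the low-count filter (edgeR adjusted p = 1.05e-05), with a replicate block (edgeR adjusted p = 0.03) and with RLE size factors (edgeR adjusted p = 0.0499). Without oxamate plus lactate replicate 1 or 2 it also passed (edgeR adjusted p = 4.08e-07 and 3.64e-07). Pseudogene copies of DUSP8 might share its reads. DUSP8P5, the one with most counts, had 7 and 4 counts with oxamate plus lactate, 2 and 2 with oxamate, 21 and 21 in hypoxia and 11 and 18 in normoxia. Over the hypoxia libraries DUSP8 itself had 57 and 50 counts, and the part of shared reads in its level was not tested.

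The promoter of DUSP8 is shown because the gene had the largest increase with oxamate among the members, with that of DUSP1 beside it as the largest increase with lactate apart from DUSP6, which had few counts. They are the 250 bases before the RefSeq start on GRCh38.p14, printed 5′ to 3′ on the minus strand of the genome, from which both genes are read. Capitals mark the full cyclic AMP response element (CRE, TGACGTCA), the core of the hypoxia response element (ACGTG or GCGTG) and CCAAT, on either strand.
DUSP8, chr11:1572272-1572521: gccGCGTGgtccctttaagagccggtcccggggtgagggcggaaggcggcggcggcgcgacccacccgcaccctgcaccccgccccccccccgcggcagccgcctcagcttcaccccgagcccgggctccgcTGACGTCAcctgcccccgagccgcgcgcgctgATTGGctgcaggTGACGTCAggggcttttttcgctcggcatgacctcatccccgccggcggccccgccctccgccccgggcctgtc
DUSP1, chr5:172771196-172771445: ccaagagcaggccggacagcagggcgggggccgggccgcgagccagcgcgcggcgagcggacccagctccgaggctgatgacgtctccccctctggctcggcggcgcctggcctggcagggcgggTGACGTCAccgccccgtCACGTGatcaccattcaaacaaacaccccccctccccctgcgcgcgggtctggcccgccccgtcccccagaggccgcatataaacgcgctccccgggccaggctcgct

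The DUSP8 window held 2 full CREs, at -118 to -111 and -74 to -67 from the RefSeq start. Of 35116 RefSeq promoter windows of the same length, 1.65% held at least 1 CRE and 0.0541% (19 windows) held 2 or more. Repeated matches over all windows were counted for the CRE only, so this share has no counterpart for the other motifs. The windows were not matched for base content, and that of DUSP8 was 76.8% G or C. Whether its 2 CREs are more than such a window would hold was not tested. DUSP1 held 1 CRE, at -125 to -118, with TATAAA at -30 to -25, a motif found in 10.7% of all windows. The first start of DUSP10 had no CRE and 4 matches of CCAAT, which 32% of all windows hold at least once. DUSP10 has another RefSeq start further into the gene, and its window (chr1:221736901-221737150) held none of the motifs searched. The hypoxia response element core was in 43.2% of all windows and in those of DUSP1, DUSP2, DUSP6, DUSP8, DUSP9 and DUSP10, but not of DUSP7 or DUSP16. In DUSP1 and DUSP2 it overlaps the E-box CACGTG, a palindrome found in 6.34% of all windows and in no other member window. No member window held the AP-1 site TGANTCA (6.57% of all windows), the ETS site CCGGAA (14.5%), the heat shock element GAANNTTC (5.78%) or the CArG box (1.16%). The shorter CRE core TGACG (21.2% of all windows) was found in DUSP1 and DUSP8, overlapping their CREs and also apart from the CRE in DUSP1. The metal response element core, TGCACNC or TGCGCNC (24.8%), was found in DUSP1, DUSP2, DUSP8, DUSP9 and DUSP16. These are matches of letters in a window and were not tested as binding sites. RefSeq and GENCODE place the start at different bases for several members, among them DUSP8, DUSP16 and the first start of DUSP9, and the windows follow RefSeq. On the minus strand GENCODE starts DUSP8 at 1571920, while its window runs from 1572272 to 1572521. That window and its CREs thus lie upstream of the GENCODE start without adjoining it. No promoter sequence was used for DUSP4 or DUSP5.

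DUSP16 (ENSG00000111266, also called MKP-7; chr12:12474210-12562383, minus strand) is a JNK phosphatase that shuttles between cytoplasm and nucleus. It had 80.9 and 74.4 CPM with oxamate plus lactate, 37.3 and 38.1 CPM with oxamate, 44.8 and 44.4 CPM in hypoxia and 28.96 and 28.24 CPM in normoxia. Its range was the narrowest of the tested members, with an SD of log2 CPM over the 8 libraries of 0.562, against 2.48 for DUSP8 and 1.96 for DUSP10. DUSP16 rose by 0.64 ± 0.06 in hypoxia (1.56-fold, edgeR adjusted p = 9.62e-10) and by 1.04 ± 0.05 when lactate was added to oxamate (2.06-fold, edgeR adjusted p = 1.27e-13). With oxamate against hypoxia it fell by 0.24 ± 0.06 on the log2 scale (edgeR adjusted p = 0.00047), close to the median of all tested genes there (-0.20). That call ended without oxamate replicate 1 (-0.13) and with DESeq2 (-0.16, adjusted p = 0.0735).

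The 3 detected nuclear inducible phosphatases, DUSP1, DUSP4 and DUSP5, were all lower in hypoxia than in normoxia and all highest with oxamate plus lactate. DUSP4 rose with oxamate against hypoxia, whereas DUSP1 and DUSP5 fell. DUSP1 (ENSG00000120129, also called MKP-1; chr5:172768090-172771195, minus strand) is an immediate early gene whose product acts on p38, JNK and ERK. It had 31.9 and 33.9 CPM with oxamate plus lactate, 2.94 and 3.11 CPM with oxamate, 3.73 and 4.29 CPM in hypoxia and 6.54 and 6.16 CPM in normoxia. Only the libraries with lactate stood above normoxia. DUSP1 rose by 3.44 ± 0.11 when lactate was added to oxamate (10.9-fold, edgeR adjusted p = 3.59e-17), and by 3.04 ± 0.10 with oxamate plus lactate against hypoxia (8.21-fold, edgeR adjusted p = 4.34e-17). It fell by 0.66 ± 0.12 in hypoxia against normoxia (edgeR adjusted p = 5.34e-05). It fell by 0.40 ± 0.15 with oxamate against hypoxia (edgeR adjusted p = 0.0144). That call ended without hypoxia replicate 2 (-0.30), without oxamate replicate 1 (-0.27) or 2 (-0.35), without oxamate plus lactate replicate 2 (-0.31), in a fit of the 2 groups alone (-0.31) and with DESeq2 (-0.32).

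DUSP4 (ENSG00000120875, also called MKP-2; chr8:29333064-29350668, minus strand) is an ERK and JNK phosphatase and a known ERK target gene. It had 46.0 and 48.3 CPM with oxamate plus lactate, 23.1 and 20.6 CPM with oxamate, 2.31 and 1.97 CPM in hypoxia and 18.5 and 18.7 CPM in normoxia. The hypoxia libraries stood apart as low, and the oxamate libraries lay just above normoxia. DUSP4 fell by 3.12 ± 0.12 in hypoxia against normoxia (8.69-fold lower, edgeR adjusted p = 2.04e-16), the 100th largest fitted decrease of all tested genes. With oxamate it was 10.2-fold higher than in hypoxia (3.35 ± 0.11, edgeR adjusted p = 2.57e-17), and lactate raised it by a further 1.11 ± 0.07 against oxamate (2.16-fold, edgeR adjusted p = 7.09e-12). With oxamate against normoxia DUSP4 was higher by 0.23 ± 0.08 (edgeR adjusted p = 0.0113), which no longer passed without normoxia replicate 1 (0.21) or 2 (0.23) or without a filter on low counts (0.19).

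DUSP5 (ENSG00000138166; chr10:110497838-110511544, plus strand) is a nuclear phosphatase that acts on ERK alone among the MAP kinases. It had 41.7 and 43.5 CPM with oxamate plus lactate, 6.66 and 6.91 CPM with oxamate, 11.5 and 11.9 CPM in hypoxia and 13.3 and 14.4 CPM in normoxia. As for DUSP1, the oxamate libraries were the lowest and the lactate libraries the highest. DUSP5 fell by 0.78 ± 0.10 with oxamate against hypoxia (edgeR adjusted p = 1.97e-07) and rose by 2.65 ± 0.09 when lactate was added (6.28-fold, edgeR adjusted p = 3.37e-17). The fall in hypoxia against normoxia was small (-0.25 ± 0.09, edgeR adjusted p = 0.0119). It ended without normoxia replicate 2 (-0.18), without hypoxia replicate 1 (-0.22), with upper quartile normalization (-0.14) and with DESeq2 (-0.25). The DUSP5 pseudogene DUSP5P1 had at most 19 counts in any library.

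**Figure D2:**
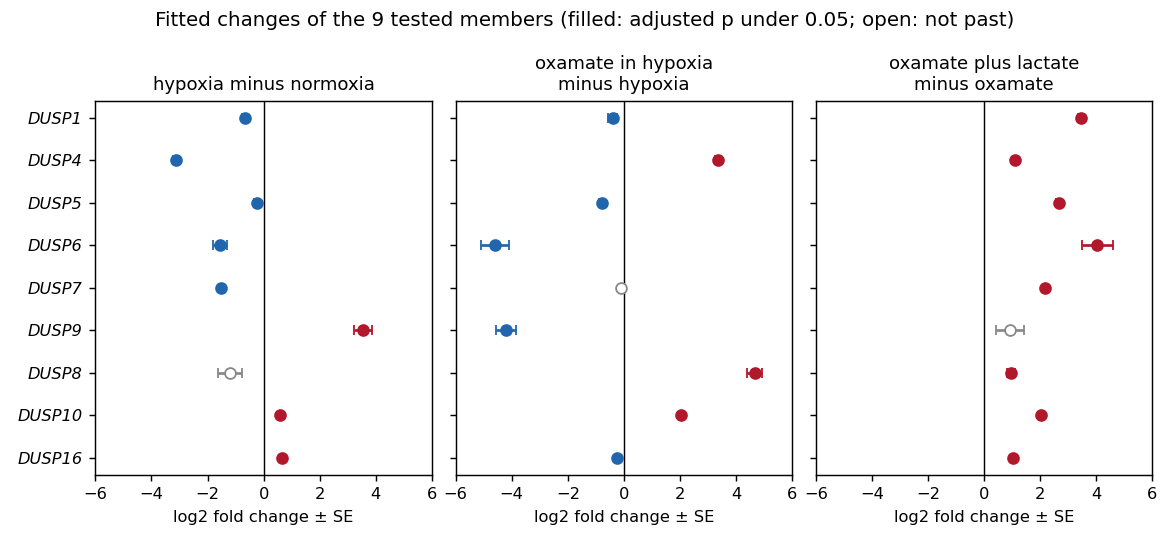
Fitted log2 fold changes ± SE of the 9 tested members in 3 comparisons (one panel each), red for higher and blue for lower at an edgeR adjusted p under 0.05 and open grey for those that did not pass. In the panel for lactate added to oxamate all 9 points lie right of 0, from 0.92 for DUSP9, which did not pass, to 4.03 for DUSP6.

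The cytoplasmic ERK phosphatases gave 3 different patterns. DUSP7 (ENSG00000164086; chr3:52048919-52056550, minus strand), a broadly expressed ERK phosphatase, had 90.4 and 101 CPM with oxamate plus lactate and 20.7 and 22.3 CPM with oxamate. In hypoxia it had 23.5 and 23.0 CPM and in normoxia 67.1 and 66.3 CPM. Hypoxia and oxamate lay close together and low. DUSP7 fell by 1.52 ± 0.06 in hypoxia against normoxia (2.86-fold lower, edgeR adjusted p = 6.32e-16) and rose by 2.16 ± 0.06 when lactate was added to oxamate (4.47-fold, edgeR adjusted p = 3.62e-18). With oxamate against hypoxia it was at -0.12 ± 0.07 and did not pass (95% interval -0.27 to 0.03, edgeR adjusted p = 0.135), but passed as lower with upper quartile normalization (-0.18, edgeR adjusted p = 0.0197).

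DUSP6 (ENSG00000139318, also called MKP-3; chr12:89347232-89353271, minus strand) is the ERK-specific phosphatase often read as a marker of ERK output. It had 23 and 23 counts with oxamate plus lactate (1.17 and 0.937 CPM), 1 and 2 counts with oxamate (0.0387 and 0.0809 CPM), 36 and 53 counts in hypoxia (1.22 and 1.86 CPM) and 132 and 132 counts in normoxia (4.91 and 4.17 CPM). The oxamate libraries held almost none of its reads. Because the oxamate libraries had 3 counts together, ratios of scaled counts are given with 95% binomial (Clopper-Pearson) intervals, which cover counting error only. DUSP6 was 25.9-fold lower with oxamate than in hypoxia (interval 8.58 to 128) and fell in the test across all genes (edgeR adjusted p = 3.13e-08). It was 17.5-fold higher with oxamate plus lactate than with oxamate (interval 5.64 to 88.1, edgeR adjusted p = 1.39e-06). In hypoxia against normoxia it fell by 1.55 ± 0.25 (2.94-fold lower, edgeR adjusted p = 9.37e-06). With oxamate plus lactate it did not differ from hypoxia beyond the threshold (-0.56 ± 0.30, 95% interval -1.19 to 0.08, edgeR adjusted p = 0.0989). The ratio of scaled counts there was 0.677, and its binomial interval, for counting error only, lay under 1 (0.463 to 0.977). In the edgeR test DUSP6 passed there as lower without hypoxia replicate 1 (-0.83) and with upper quartile normalization (-0.82). Of the exon bases of DUSP6, 40.5% are shared with the antisense gene AC024909.2, which had 0 to 5 counts per library, and since strand was not stated the lowest DUSP6 counts cannot be told from antisense reads.

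DUSP9 (ENSG00000130829, also called MKP-4; chrX:153642492-153651326, plus strand) is an ERK-preferring phosphatase known from placenta, kidney and embryonic stem cells. It had 10 and 10 counts with oxamate plus lactate (0.508 and 0.407 CPM), 5 and 7 counts with oxamate (0.194 and 0.283 CPM), 149 and 108 counts in hypoxia (5.05 and 3.80 CPM) and 11 and 11 counts in normoxia (0.409 and 0.348 CPM). Only the hypoxia libraries were high. DUSP9 was 11.8-fold higher in hypoxia than in normoxia by scaled counts (interval 7.63 to 19.2), with a fitted change of 3.54 ± 0.33 (edgeR adjusted p = 2.09e-09). With oxamate it was 18.7-fold lower than in hypoxia (interval 10.5 to 36.7; fitted -4.19 ± 0.36, edgeR adjusted p = 4.92e-10). Adding lactate gave a ratio of 1.91 to oxamate (interval 0.887 to 4.28), which did not pass (0.92 ± 0.50, edgeR adjusted p = 0.111), and the level stayed 9.81-fold lower than in hypoxia (interval 6.22 to 16.3, edgeR adjusted p = 9.04e-09). DUSP9 was the 1 member that fell with oxamate plus lactate against hypoxia. Its promoter is shown because it was the only member whose own level was highest in hypoxia among the 4 groups, for the first of 2 RefSeq starts on the plus strand, with the hypoxia response element core in capitals.
DUSP9, chrX:153642191-153642440: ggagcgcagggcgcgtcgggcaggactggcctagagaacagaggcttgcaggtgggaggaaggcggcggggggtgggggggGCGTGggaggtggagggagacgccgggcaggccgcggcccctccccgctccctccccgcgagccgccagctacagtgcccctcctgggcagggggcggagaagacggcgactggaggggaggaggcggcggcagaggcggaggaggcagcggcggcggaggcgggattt
It held 1 such core, at -169 to -165 from the RefSeq start, and the window of the other start (chrX:153646953-153647202) held 1 at -20 to -16. The core is in 43.2% of all windows, and in those of DUSP1, DUSP2, DUSP6, DUSP8 and DUSP10. Of these, DUSP10 rose in hypoxia against normoxia, and DUSP1 and DUSP6 fell.

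Per length of the union of exons (RPKM, CPM divided by length in kilobases), the 10 members together summed to 324 ± 3.51 RPKM with oxamate plus lactate, 85.1 ± 1.71 with oxamate, 34.9 ± 0.0572 in hypoxia and 39.0 ± 0.52 in normoxia (SD, n = 2 libraries each). With oxamate plus lactate DUSP10 made up 72.3% of that sum and DUSP8 6.07%, and with oxamate 67.4% and 11.9%. In hypoxia DUSP10 led with 39.9%, followed by DUSP16 with 22.3%. In normoxia DUSP7 led with 30.3%, ahead of DUSP10 with 23.5%. The JNK and p38 class held 82.6% of the sum with oxamate plus lactate, 87.1% with oxamate, 63.4% in hypoxia and 38.6% in normoxia. Cytoplasmic ERK phosphatases held 5.35%, 4.59%, 17.3% and 33.1% in the same groups, and nuclear inducible ones 12.1%, 8.35%, 19.3% and 28.2%. In level, the cytoplasmic class had 17.3 RPKM with oxamate plus lactate, 3.90 with oxamate, 6.05 in hypoxia and 12.9 in normoxia.

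**Figure D3:**
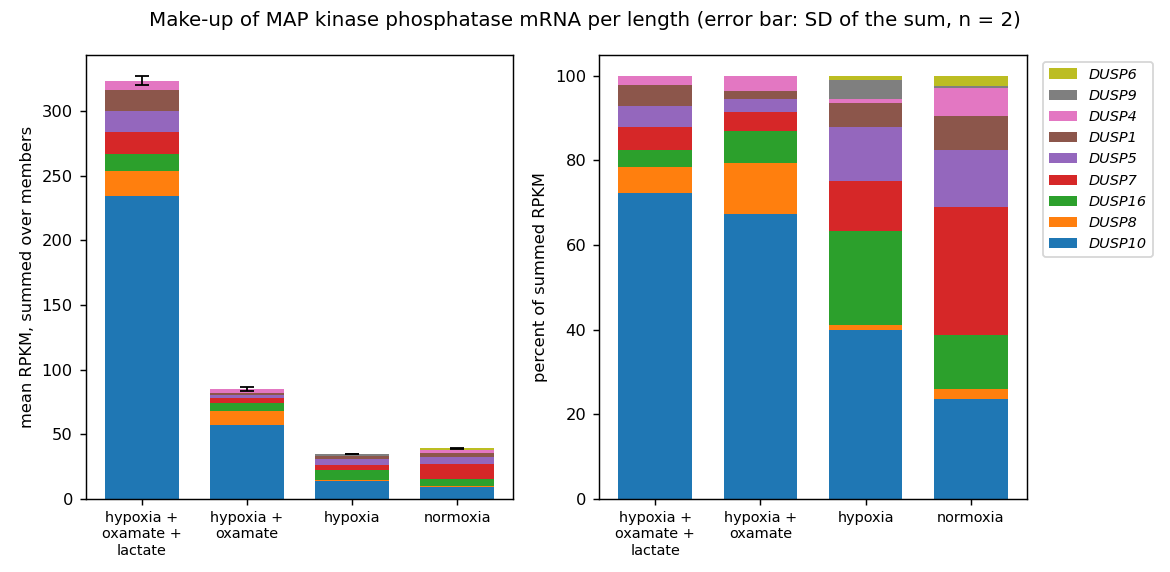
Mean RPKM of the members stacked by group (left; error bar, SD of the sum, n = 2) and the same as percent of the sum (right). The total is 324 RPKM with oxamate plus lactate and 39.0 RPKM in normoxia, and the DUSP10 share is 72.3% against 23.5%.

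By RPKM within a group, DUSP10 ranked first in all groups but normoxia, where it followed DUSP7 (9.15 ± 0.548 against 11.8 ± 0.108 RPKM). The libraries of neighbours in the order overlapped with oxamate plus lactate for DUSP8, DUSP7, DUSP1 and DUSP5, whose means ran from 16.3 to 19.6 RPKM. They overlapped in hypoxia for DUSP8, DUSP6 and DUSP4 (means 0.295 to 0.400 RPKM) and in normoxia for DUSP6 and DUSP8 (0.980 and 0.905 RPKM). All other neighbours were separate, with 2 libraries per group.

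Genes of the same pathway were counted in 7 lists that hold none of the members. Among 9 tested atypical dual-specificity phosphatases, a related family, 4 rose and 3 fell when lactate was added to oxamate. Their median was 0.03, where the 9 members had 2.03 and all tested genes -0.02. With oxamate against hypoxia 2 of them rose and 7 fell (median -0.57, members -0.24, all tested genes -0.20), and in hypoxia against normoxia 2 rose and 3 fell (median -0.13, members -0.66, all tested genes 0.02). DUSP19, a JNK pathway phosphatase of that list, rose by 1.77 ± 0.21 in hypoxia and fell by 2.97 ± 0.24 with oxamate. DUSP12 went the other way (-1.05 ± 0.07 in hypoxia, 1.21 ± 0.07 with oxamate), as did DUSP14 (-0.69 ± 0.05 and 0.89 ± 0.05). DUSP11 rose by 2.02 ± 0.06 when lactate was added to oxamate. Of 6 tested phosphatases of other families that act on MAP kinases, 1 rose and 3 fell in hypoxia (median -0.09), 3 rose and 2 fell with oxamate (median 0.04), and 5 rose and none fell with lactate added (median 0.88). PTPRR, a tyrosine phosphatase that binds ERK, was the 1 that rose in hypoxia, by 4.07 ± 0.18, and it fell by 3.66 ± 0.18 with oxamate and rose by 2.68 ± 0.19 when lactate was added.

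The kinases upstream moved in both directions. Of 12 MAP kinase genes, 6 rose and 5 fell in hypoxia, 3 rose and 7 fell with oxamate, and 3 rose and 6 fell with lactate added. MAPK6, encoding the atypical kinase ERK3, was the largest increase of these with lactate (1.77 ± 0.06). MAPK9 rose by 0.59 ± 0.04 with oxamate and fell by 0.42 ± 0.04 with lactate added. Of 7 MAP2 kinases, which phosphorylate the MAP kinases, 3 rose and 3 fell in hypoxia, 4 rose and 2 fell with oxamate, and 3 rose and 4 fell with lactate. MAP2K3, a p38 activator, fell by 1.79 ± 0.05 in hypoxia, rose by 2.09 ± 0.05 with oxamate and fell by 0.56 ± 0.04 with lactate added. MAP2K4, which activates JNK and p38, fell by 1.37 ± 0.06 with oxamate and rose by 1.84 ± 0.06 with lactate added. In the stress-activated MAP3 kinases 2 of 8 rose and 3 fell in hypoxia, 1 rose and 6 fell with oxamate (median -1.06), and 4 rose and 2 fell with lactate (median 0.75). From RAS to RAF, 6 of 13 rose and 6 fell in hypoxia, 4 rose and 8 fell with oxamate, and 9 rose and 2 fell with lactate. SOS2, a RAS activator, fell by 3.33 ± 0.13 with oxamate and rose by 2.53 ± 0.14 with lactate added, whereas SHC1 fell by 0.82 ± 0.05 with lactate.

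Of 13 tested genes known as outputs of ERK signalling, 2 rose and 10 fell in hypoxia against normoxia (median -0.67). CCND1, encoding cyclin D1, fell by 2.66 ± 0.05 and the receptor gene EPHA2 by 1.92 ± 0.05, whereas IER3, an early response gene, rose by 3.76 ± 0.04. With oxamate against hypoxia 7 rose and 5 fell (median 0.26), with CCND1 higher by 1.51 ± 0.06 and IER3 lower (-4.47 ± 0.04). When lactate was added to oxamate 7 rose and 3 fell (median 0.51). SPRY2, an inhibitor of receptor tyrosine kinase signalling, rose by 3.64 ± 0.18 there and IER3 by 2.98 ± 0.04, and CCND1 fell by 1.49 ± 0.06. The share of all tested genes that passed in each direction is given above for every comparison, and the lists were not tested as sets.

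**Figure D4:**
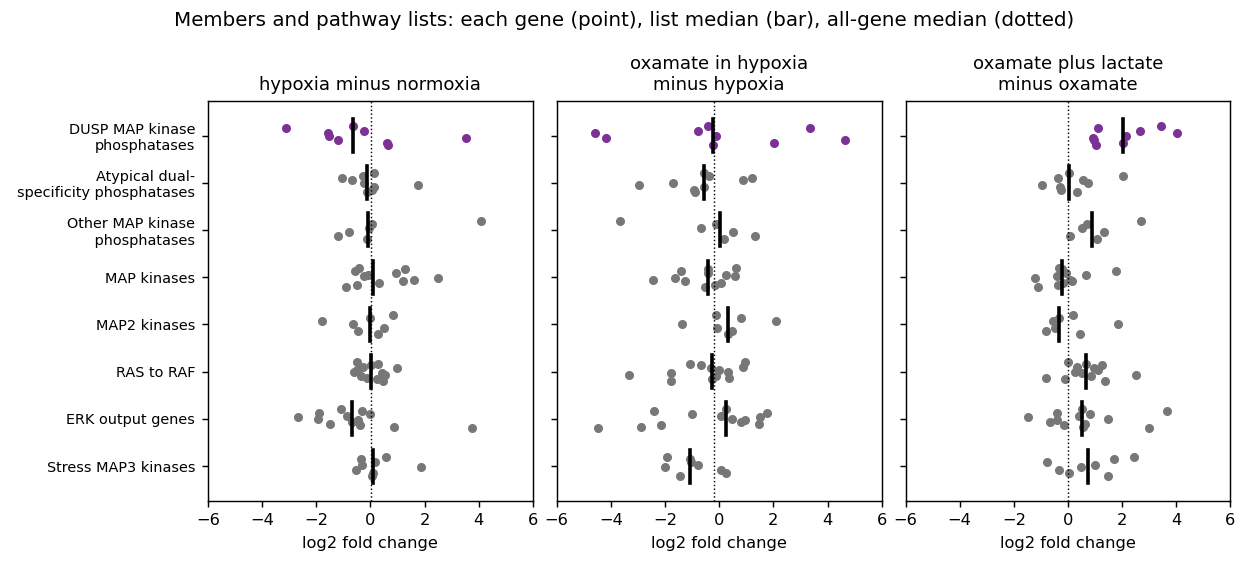
Fitted log2 fold changes of each tested gene (points) of the members and of 7 pathway lists in 3 comparisons, with list medians (bars) and the median of all tested genes (dotted line). With lactate added to oxamate the members' median is 2.03, and that of the other lists lies between -0.32 and 0.88.

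For the 3 members whose level varied most over the libraries, the most similar genes were sought among 11473 others by the root mean square (RMS) difference of centred log2 CPM over the 8 libraries. For DUSP8 these were MMP3, a matrix metalloproteinase gene (RMS difference 0.407), CREB5, a transcription factor gene (0.507), and the zinc exporter gene SLC30A1 (0.654). MMP3 averaged 22.4 CPM with oxamate plus lactate, 8.64 with oxamate, 0.224 in hypoxia and 1.27 in normoxia. CREB5 averaged 21.4, 8.84, 0.466 and 1.92 CPM in the same groups. Both were near the floor in hypoxia, where 3 counts would be 0.1017 to 0.1055 CPM. For DUSP10 they were GDF15, a stress-induced cytokine gene (0.339), SLC30A1 again (0.356) and PPP1R15A, a stress-induced phosphatase regulator gene (0.480). SLC30A1 averaged 222 CPM with oxamate plus lactate, 78.1 with oxamate, 9.77 in hypoxia and 7.55 in normoxia. For DUSP6 they included MRPL20-DT, a divergent transcript (0.429), and PARS2, encoding a mitochondrial prolyl-tRNA synthetase (0.476). These are likenesses over 4 groups of 2 libraries and carry no test.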

How the data were processed

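The authors deposited 1 table of raw counts per gene for 8 libraries, whole numbers in every cell. STAR 2.7.8a, RSEM 1.3.3 and FastQC 0.11.9 were named, and so were GRCh38 and hg38 as builds, per the submitters' processing notes, which assign them no role, so the counts may be rounded RSEM estimates. No source used here states annotation release, strandedness or filters. Total counts were 21845676 to 29406061.

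Genes were kept by filterByExpr (minimum count 10 over the 4 groups), which left 15554, and libraries were scaled by TMM, with factors from 0.879 to 1.15. One quasi-likelihood model with 4 group means was fitted to all 8 libraries in edgeR 4.0.16 (R 4.3.3, limma 3.58.1), each comparison was tested two-sided, with Benjamini-Hochberg adjustment across the genes tested. The SE was derived from the F statistic. Replicates differed by more than sampling noise (chi-square per degree of freedom 1.84 to 4.59). Lengths and positions are those of GENCODE release 29, and promoters those of RefSeq on GRCh38.p14. Motifs were searched as letters on both strands with Python 3.11.15, and windows of 8 members were used, 2 of them with 2 starts.

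The members, lists and motifs were chosen with earlier results of these data known. All members are named. From each pathway list, genes were named among the up to 2 largest passing changes in each direction per comparison. Likeness was sought for the 3 members with the largest SD of log2 CPM, among genes whose log2 CPM averaged at least 1 (prior count 2). Some genes that these rules name are not reported here. The comparisons were repeated with DESeq2 1.42.0, with RLE or upper quartile scaling, without the low-count filter or requiring 50 counts in 2 libraries, with a replicate block, on the 2 compared groups alone and without each library. The edgeR procedure was tested on simulated counts in which few genes changed. That test cannot speak to scaling where most genes change, as in these comparisons.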

Additional observations from a re-analysis of the deposited data

How the results depend on the processing

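Of 675 values recomputed for the 9 tested members (45 changes under 15 alternatives), 649 kept their direction and their side of the threshold, 15 lost the call, 10 gained one and 1 changed sign. The sign change was DUSP7 with oxamate against hypoxia, which did not pass in either case. DUSP7 was at 0.0323 there without oxamate replicate 1, with a range of -0.133 to 0.0323 over the fits without 1 library. In the same comparison the median of all tested genes moved too. It went from -0.196 to -0.1 without oxamate replicate 1, to -0.0971 without oxamate plus lactate replicate 2 and to -0.114 with DESeq2. The cause of the sign change was not tested. With oxamate against hypoxia the 5 lower members became 3 with DESeq2, and the count ran from 3 to 5 over the fits without 1 library, with 3 without oxamate replicate 1, where DUSP1 and DUSP16 no longer passed. With oxamate plus lactate against hypoxia the 1 lower member became 2 with upper quartile normalization, and the count ran from 1 to 2 over the fits without 1 library, with 2 without hypoxia replicate 1, where DUSP6 also passed; the cause was not tested. The 8 members that rose with lactate added to oxamate remained 8 in number in every fit without 1 library. In the hypoxia against normoxia comparison DUSP8 passed as lower without either lactate replicate (-1.18 in both). Leaving out 1 library leaves its group with 1 library, which is then assumed to vary like the others.

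The replicate numbers in the labels are shared by all groups, but deviations of same-numbered libraries did not go together (correlations from -0.0502 to 0.0118). With the replicate number as a block 6 members were lower in hypoxia against normoxia in place of 5, the addition being DUSP8 (-1.18, edgeR adjusted p = 0.03), and the other counts of members did not change. Upper quartile normalization moved the median of all genes by -0.258 with oxamate plus lactate against hypoxia and by -0.191 when lactate was added to oxamate, and no member changed direction under it. Depth limits DUSP6 and DUSP9, whose counts fell to 1 and 5 in single oxamate libraries, and DUSP2, with 0.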
